A study of Caenorhabditis elegans with 4 samples.

Results

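LIN-61 peaks near the ends of chromosomes were taken as those on chromosomes II, III, IV, V and X whose centre lay within 250 kb of either end of the chromosome in genome build WS220. Of the 13662 peaks in the combined list of the series, 482 (3.53%) met this rule at the 10 ends, and the same rule gave 400 of 11744 peaks in the list of ChIP replicate 1 and 334 of 9436 in that of replicate 2. The peaks come from chromatin immunoprecipitation and sequencing (ChIP-seq) of LIN-61 in wild-type Caenorhabditis elegans of strain N2, a mixed population of males and hermaphrodites collected as whole L3 larvae at 20 degrees Celsius, so that all tissues are averaged. A rabbit polyclonal antibody raised against LIN-61 was used for the 2 ChIP libraries, and 2 input DNA libraries came from the same strain, stage and genotype. Input libraries were not analysed here, and whether the authors' peak calls used them as the control is not given. The lists hold no read counts, which leaves the depth behind each peak unknown. Whether the replicates were separate cultures is not stated, and the spread between them may be technical.

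LIN-61 is a nuclear protein built of MBT repeats, folds that bind methylated histone tails, and it binds histone H3 methylated at lysine 9, the mark of heterochromatin. It belongs to the synthetic multivulva B genes, which limit the formation of vulval tissue. In C. elegans the outer parts of the chromosomes are rich in repeats and in this mark, and they are held at the nuclear envelope. Each chromosome also carries, towards one end, a pairing centre bound by zinc finger proteins in meiosis, which on X lies at the left end. The DNA sequences of the peaks are not printed, since no genome of build WS220 was used here, and genes are not named for the same reason.

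Over all 10 ends, LIN-61 peaks were somewhat denser at the ends than in the adjoining DNA. The outer 250 kb of each end was compared with the next 250 kb inward. The combined list held 482 peaks in the outer windows and 356 in the next windows, or 193 and 142 combined peaks per Mb, a ratio of 1.35. Replicate 1 held 400 and 319 peaks (ratio 1.25) and replicate 2 held 334 and 236 (ratio 1.42), a mean ratio of 1.33 ± 0.114 (SD, n = 2). Density was 147 ± 18.7 peaks per Mb in the outer windows and 111 ± 23.5 in the next (SD, n = 2), and the lower outer value, 134 in replicate 2, lay above the higher next value, 128 in replicate 1. The remaining length of the same 5 chromosomes, next windows included, held 122 combined peaks per Mb. By length, combined peaks covered 12.8% of the outer windows and 9.21% of the next. The covered shares were 10.8% and 7.68% for replicate 1, and 6.72% and 5.25% for replicate 2. With 2 libraries of 1 kind, an exact two-sided permutation test over libraries cannot go below p = 0.5, so no test was run on any of these differences.

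The pooled ratio did not describe the single ends, which differed widely. In the combined list the outer windows held between 16 peaks (right end of IV) and 95 (left end of X), with a median of 48. The range was 11 to 89 in replicate 1 and 10 to 81 in replicate 2, with the left end of X highest in each list and the right end of IV lowest, where in replicate 2 the right end of X had as few. The outer window held more peaks than the next at 7 of 10 ends by combined peaks, at 7 by those of replicate 1 and at 6 by those of replicate 2. Direction was the same in both replicates at 7 ends: 5 had more peaks in the outer window and 2 had fewer, while at the other 3 the replicates were opposed. The left ends of V and X together held 149 of the 482 peaks (30.9%), and without these 2 ends the ratio over the other 8 was 1.06.

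**Figure D1:**
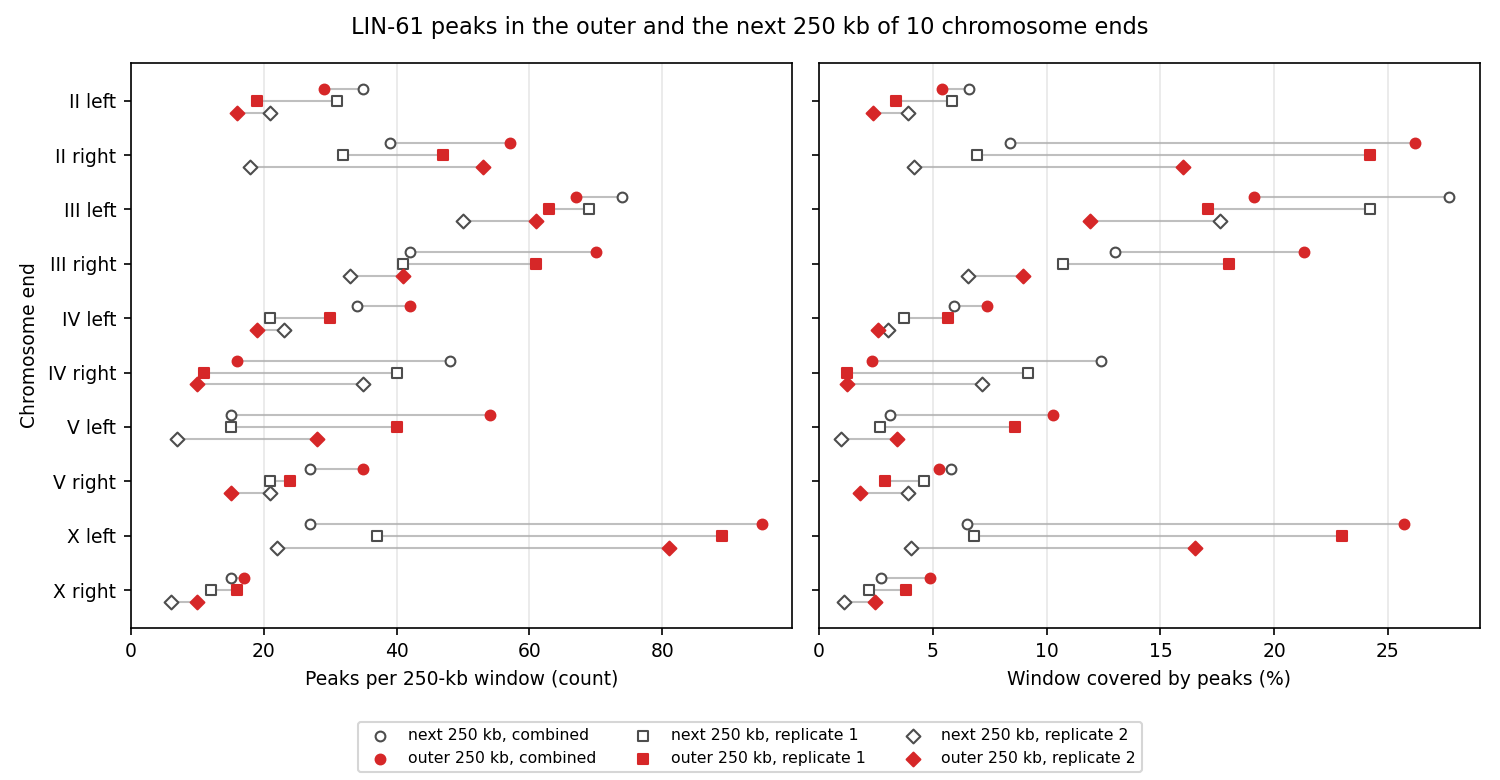
Peaks per 250-kb window (left) and share of the window covered by peaks (right, in percent) at each of the 10 ends. Filled red symbols stand for the outer window and open symbols for the next one, with a circle for the combined list, a square for replicate 1 and a diamond for replicate 2; at the left end of X the outer window held 95, 89 and 81 peaks and at the right end of IV 16, 11 and 10.

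By peak number, the left end of X was the richest end. By covered length the right end of II was higher in the combined list (26.2% against 25.7%) and replicate 1 (24.2% against 23.0%). In replicate 2 the left end of X was the higher, at 16.5% against 16.0%. Its outer window held 95 combined peaks, 89 peaks of replicate 1 and 81 of replicate 2, against 27, 37 and 22 in the next window. Both libraries showed the excess, with 85.0 ± 5.66 peaks in the outer window and 29.5 ± 10.6 in the next (SD, n = 2), and the groups of values did not overlap. Of 70 successive windows of 250 kb counted from this end, the outer one ranked 1 by peak number and 1 by covered length in all 3 lists. It made up 1.41% of the length of X and held 11.0% of the 864 combined peaks of the chromosome. The median window of X held 10 combined peaks.

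Within the left end of X the peaks were spread over the whole window. The 5 steps of 50 kb from the end inward held 25, 25, 14, 20 and 11 combined peaks. Peaks covered 29.4%, 37.0%, 14.6%, 40.2% and 7.25% of these steps. Replicate 2 had the same order of covered shares, with 27.7% in the fourth step, 23.0% in the second and 17.3% in the first, and so had replicate 1, at 34.2%, 29.8% and 28.6%. The dense part ran past the 250-kb limit, with 15, 23 and 15 peaks between 250 and 300 kb in the combined list, replicate 1 and replicate 2, against 11, 6 and 9 in the step before. Beyond 300 kb the counts were lower, with 7, 9 and 5 in the next step and none between 450 and 500 kb in any of the 3 lists.

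The left end of X held 21 of its 95 peaks in the top 10% of the combined list by score, against 10.1% of the whole list with ties. The score is the value given to each peak by the authors' peak caller, and it is used here only within a list. The median score at this end was 12.23, below the 18.68 of the next window, and the medians were 8.69 and 12.2 in replicate 1 and 10.22 and 9.66 in replicate 2. At the left end of X the top score was 119.82, for a 1717-bp peak on chromosome X, 180289 to 182005, ranked 58 of 13662. Its partner ranked 99 in replicate 1 (score 130.3) and 265 in replicate 2 (score 51.91). A peak of 2298 bp at 187912 to 190209 scored 93.41, and its partner in replicate 1, with a score of 178.34, ranked 18 of 11744; this peak was picked after its values were seen. The covered bases were not gathered in 1 block, since the longest run of peaks less than 1 kb apart spanned 10.9 kb and held 13.6% of them. Strong peaks were placed unevenly, and none of the top 10% had its centre between 98525 and 149808 bases from the end.

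The left end of V also held more peaks than the DNA next to it, with the densest 50-kb step at the very end. Its outer window held 54 combined peaks, 40 peaks of replicate 1 and 28 of replicate 2, and the next window 15, 15 and 7. Replicate means were 34.0 ± 8.49 and 11.0 ± 5.66 peaks (SD, n = 2), and every outer value lay above every next value. The 5 steps from the end inward held 23, 2, 11, 12 and 6 combined peaks, 16, 1, 12, 6 and 5 peaks of replicate 1 and 14, 0, 7, 2 and 5 of replicate 2. The first step was the highest in each list, and 29 of the 54 combined peaks lay more than 100 kb from the end. A block from 8222 to 20969, formed by 12 combined peaks less than 1 kb apart, held 40.3% of the covered bases of the window.

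In that first step the replicates were close in peak number and not in covered length, which was 28.2% of the step in replicate 1 and 9.88% in replicate 2. In the block, the widest combined peak measured 3122 bp at chromosome V, 9707 to 12828, and scored 39.49; it matched 1 peak of replicate 1 and 4 of replicate 2, and it too was picked after its values were seen. The best-scoring peak of this end lay farther in, at 104532 to 104781, with a width of 250 bp and a score of 47.44, and its partners ranked 999 in replicate 1 and 2225 in replicate 2. No peak lay between 400 and 450 kb from the left end of V in any of the 3 lists.

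A wide domain marked the right end of II. In the combined list the largest peak of this domain made up 38.4% of the covered bases of the outer window. The outer window of this end held 57 combined peaks, 47 of replicate 1 and 53 of replicate 2. The next window held 39, 32 and 18. The replicate values did not overlap, but the count of replicate 2 rests partly on the splitting of the domain. Of its 53 peaks, 28 lay between 50 and 100 kb from the end, against 7 of 47 in replicate 1. Covered length separated the windows more than number did, with 26.2% against 8.40% in the combined list, 24.2% against 6.95% in replicate 1 and 16.0% against 4.19% in replicate 2. The step between 50 and 100 kb from the end was covered to 70.8%, 71.0% and 46.5% in the 3 lists, which was the highest of the 50 steps in the outer windows in each.

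That step holds the widest end peak of the combined list, 25119 bp at chromosome II, 15197651 to 15222769, whose score of 89.25 was also the highest at this end. It was 1 peak in replicate 1 and 17 in replicate 2, and peaks of replicate 2 covered 70.4% of it. A peak of 6026 bp at 15191337 to 15197362 adjoined it on the inner side, with a score of 48.85, and corresponded to 1 peak of replicate 1 and 8 of replicate 2. Another, of 5232 bp, lay at 15226240 to 15231471 on the outer side (score 52.45), with 1 and 5 matching peaks. Because the lists broke the domain into unequal numbers of pieces, the count of 53 peaks in replicate 2 is not lower than that of replicate 1, whereas its covered length is. Farther in, a peak of 6185 bp at 15038451 to 15044635 scored 59.14 and matched 1 peak in replicate 1 and 3 in replicate 2. Of the 5 widest end peaks, these 4 lay at the right end of II.

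The right end of IV was the opposite case and held the fewest peaks. Its outer window had 16 combined peaks, 11 of replicate 1 and 10 of replicate 2, against 48, 40 and 35 in the next window. Replicate means were 10.5 ± 0.707 and 37.5 ± 3.54 peaks (SD, n = 2), with no overlap. Covered length was 2.34%, 1.21% and 1.23% of the outer window and 12.4%, 9.19% and 7.18% of the next. By peak number the outer window ranked 53 of 69 on this chromosome in the combined list and in replicate 1, and 44 in replicate 2.

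No combined peak lay in the last 102851 bases of IV. In replicate 2 the last 116805 bases were free, and in replicate 1 a stretch of 103539 bases was free apart from 1 peak at the very end. This was the longest stretch without a peak in any of the 10 outer windows, the next longest in the combined list being 61513 bases at the left end of III. The combined peak nearest to the end, at chromosome IV, 17390711 to 17390942, scored 2.60 and overlapped a peak of neither replicate. The best-scoring peak of this end lay 215 kb in, at 17278223 to 17279064, with a width of 842 bp and a score of 65.77, and it had partners ranked 797 in replicate 1 and 791 in replicate 2. The next window was not poor: its densest step, 350 to 400 kb from the end, held 20, 16 and 14 peaks.

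Chromosome III had many peaks on both sides, and its ends differed in how they compared with the adjoining DNA. The left end held 67, 63 and 61 peaks in the 3 lists and its next window 74, 69 and 50, so that the replicates went opposite ways in number (62.0 ± 1.41 against 59.5 ± 13.4, SD, n = 2). In covered length the next window was the higher in all 3 lists, at 27.7% against 19.1%, 24.2% against 17.1% and 17.6% against 11.9%. The peaks of the left end fell into an outer and an inner part with few between: the 5 steps held 19, 23, 4, 5 and 16 combined peaks. No combined peak lay from 122365 to 183877, and the other lists shared this gap. Replicate 1 was free from 122370 to 183912 and replicate 2 from 106672 to 185943. The left end also held the highest-scoring end peak of the combined list, 4340 bp at chromosome III, 69503 to 73842, with a score of 132.68 and rank 26. Its best partners ranked 38 in replicate 1 and 61 in replicate 2. A peak of 5276 bp at 62093 to 67368, with a score of 54.35, was the fourth widest at any end.

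At the right end of III the outer window held 70 combined peaks against 42, 61 against 41 in replicate 1 and 41 against 33 in replicate 2, an excess of 20 peaks in replicate 1 and of 8 in replicate 2 (mean 14.0 ± 8.49, SD, n = 2). The excess had the same direction in both libraries, and the lowest outer count equalled the highest next count of the replicates, 41. Covered length was 18.0% of the outer window in replicate 1 and 8.96% in replicate 2, and 61.9% of this gap lay in 1 block. From 13584219 to 13600141, 184 to 199 kb from the end, combined peaks took up 85.3% of the bases and replicate 1 peaks 91.0%, but replicate 2 peaks 3.18%. The block had 15 combined peaks with scores of 2.32 to 11.31. It had 7 peaks in replicate 1, scoring up to 22.56, and 2 in replicate 2, scoring 3.43 and 3.82. Of the 15 combined peaks, 12 overlapped replicate 1 only, 2 overlapped both and 1 neither. This block was picked out after its values were seen. Without it the outer window held 55 combined peaks (ratio to the next window 1.31), 54 in replicate 1 (1.32) and 39 in replicate 2 (1.18). The best-scoring peak of this end, 3622 bp at 13718177 to 13721798 with a score of 52.88, had partners ranked 2627 in replicate 1 and 377 in replicate 2.

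The other 4 ends held between 17 and 42 combined peaks in the outer window. At the left end of II the outer window was the lower in all 3 lists, with 29, 19 and 16 peaks against 35, 31 and 21. The right end of X was the higher in all 3, with 17, 16 and 10 peaks against 15, 12 and 6. At the left end of IV (42, 30 and 19 against 34, 21 and 23) and the right end of V (35, 24 and 15 against 27, 21 and 21) the combined list and replicate 1 had more peaks in the outer window and replicate 2 had fewer. The highest scores at the left end of II and the right end of V, 29.7 and 20.39, were the lowest such maxima among the 10 ends. The left end of IV had a stronger site, 890 bp at chromosome IV, 79441 to 80330, with a score of 81.35 and partners ranked 287 in replicate 1 and 718 in replicate 2. The best peak at the right end of X, 3855 bp at chromosome X, 17627710 to 17631564, scored 46.79 and made up most of a block that held 33.4% of the covered bases there.

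**Figure D2:**
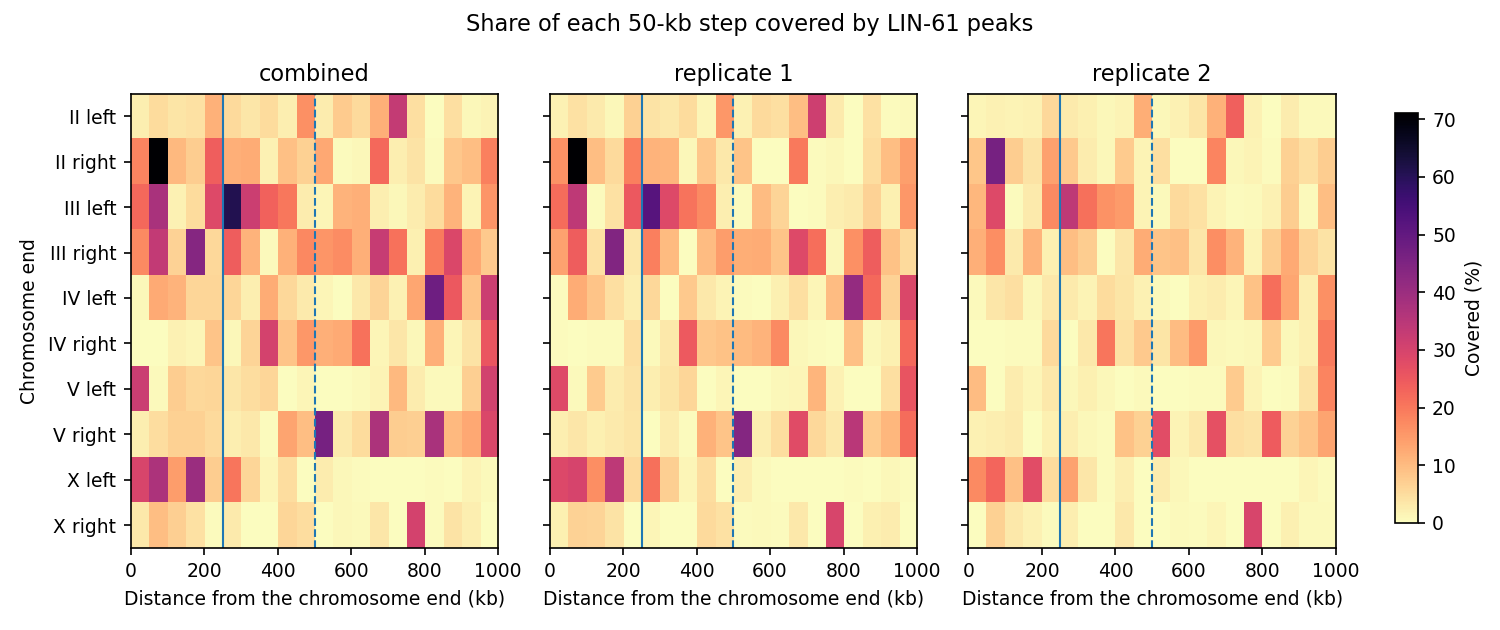
Share of each 50-kb step covered by LIN-61 peaks (colour, in percent) against the distance from the chromosome end in kb, for the 10 ends in the combined list and in each replicate. The solid line marks 250 kb and the dashed line 500 kb; the darkest step of the outer windows lies at 50 to 100 kb from the right end of II, at 70.8%, 71.0% and 46.5% in the 3 lists.

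Added over the 10 ends, peaks did not thin out steadily from the end inward. The first 5 steps of 50 kb held 106, 107, 71, 100 and 98 combined peaks, and the next 5 held 86, 70, 63, 69 and 68. The step between 950 and 1000 kb held 130, more than any step of the outer windows. Replicate 1 had 100 peaks in the first step and 120 in the last of the 20, and replicate 2 had 77 and 98. In replicate 2 the second step, with 101, was higher than the last. Of these 101, 28 lay at the right end of II, where replicate 1 had 7 and the combined list 8, because the domain there was split into more pieces. Mean covered share was highest in the second step in all 3 lists, at 21.2%, 18.6% and 12.9%, where the right end of II contributed most.

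The replicate lists differed in their outermost peaks. In replicate 1, a peak reached the very last base of the chromosome at 9 of the 10 ends, the left end of III being the exception. In replicate 2 and in the combined list no end had such a peak. The 9 terminal peaks were narrow, 173 to 313 bp wide, with scores of 1.69 to 9.60 that ranked between 4894 and 11684 of 11744. Of these 9, 1 overlapped a combined peak: at the left end of V, bases 1 to 295 of replicate 1 met a combined peak at 164 to 316, which scored 1.33 and ranked 13657 of 13662. The terminal peaks at the other 8 ends were in the replicate 1 list alone.

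The outermost sites of the combined list lay at varied distances. The one at the left end of V is the peak that met a terminal peak of replicate 1, its only replicate overlap. In the combined list the outermost peak came within 163 bases of the left end of V, 4385 bases of the right end of III, 5160 of the right end of II, 6857 of the right end of X, 2067 of the left end of X and 9505 of the left end of III. It lay 17274 bases from the left end of IV, 21886 from the right end of V, 29177 from the left end of II and 102851 from the right end of IV. In replicate 2 the outermost peak lay farther from the end than in the combined list at all 10 ends, between 3409 bases (left end of V) and 116805 bases (right end of IV). Replicate 2 also had fewer end peaks, 334 against 482, and whether the distances follow from the shorter list was not tested. Of the 10 outermost combined peaks, 7 overlapped a peak of replicate 1 only, 1 of replicate 2 only and 2 of neither. None overlapped both, against 45.3% of the whole combined list, a share that takes in peaks of every score. The highest score of these 10 peaks was 9.41, at chromosome II, 15273646 to 15274185. The median score of the whole combined list was 8.58, so the shares with both are not matched for score. Over all end peaks the share with both was 42.9%, and it was 80.4% among those at or above the median score. The whole-list share at or above that score was not computed, so the 80.4% is not shown to be particular to the ends.

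**Figure D3:**
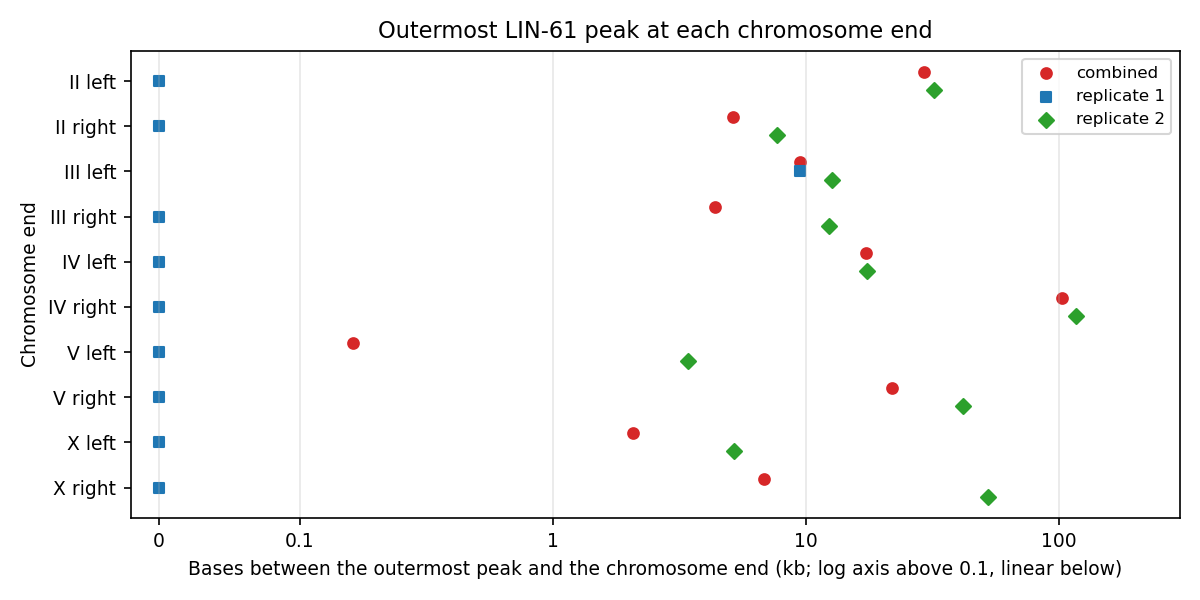
Distance in kb from the chromosome end to the nearest edge of the outermost peak at each of the 10 ends, in the combined list (circles), replicate 1 (squares) and replicate 2 (diamonds), on an axis that is logarithmic above 0.1 kb and linear below. Squares lie at 0 for 9 ends, where a replicate 1 peak includes the last base, and no circle or diamond lies at 0.

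As a group, the end peaks were much like the rest of the list in width, score and replication. Their median width was 340.5 bp in the combined list, against 369 bp in the next windows and 332 bp over the whole list. Median scores were 8.42, 8.83 and 8.58. The range among the end peaks was wide, from 146 to 25119 bp in width and from 1.33 to 132.68 in score. In replicate 1 the end and next-window medians were 348.5 and 384 bp, and in replicate 2 they were 301.5 and 337 bp.

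Of the 482 end peaks, 65 (13.5%, 95% Wilson interval 10.7 to 16.8) were at least 1 kb wide, against 13.6% of the whole combined list, and 53 (11.0%, 8.51 to 14.1) were in its top 10% by score, against 10.1% with ties. These shares were close to the background. The ends were unequal: the left ends of X and III held 21 and 18 of the 53 top peaks, together 73.6%, and the other 8 ends held 14. These 2 ends also held 19.7% and 13.9% of all end peaks, and their next windows held 3 and 14 top peaks. Over all next windows, 44 of 356 peaks (12.4%) were in the top 10%. The left end of II and the right end of V had none, while their next windows held 7 and 2. Wilson intervals cover counting error only and treat neighbouring peaks as independent, which they need not be.

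A peak of both replicates overlapped 207 of the 482 end peaks by at least 1 bp (42.9%, 95% Wilson interval 38.6 to 47.4), against 45.3% of the whole combined list and 164 of 356 peaks (46.1%, 41.0 to 51.3) in the next windows. A further 138 overlapped replicate 1 only, 30 replicate 2 only and 107 neither. The share with both was highest at the left end of X, 56 of 95 (58.9%, 48.9 to 68.3), and at the left end of III, 37 of 67 (55.2%, 43.4 to 66.5). The window next to X left had a higher share still, 17 of 27 (63.0%, 44.2 to 78.5), and that next to III left a lower one, 35 of 74 (47.3%, 36.3 to 58.5). Among the ends, the share was lowest at the right end of X, 4 of 17 (23.5%, 9.56 to 47.3), and the right end of V, 10 of 35 (28.6%, 16.3 to 45.1). At the right end of V the next window had 16 of 27 (59.3%, 40.7 to 75.5), the widest gap between the 2 windows of an end. Seen from the replicate lists, 230 of 400 end peaks of replicate 1 (57.5%) had a partner in replicate 2, against 59.1% of that whole list, and 291 of 334 of replicate 2 (87.1%) had one in replicate 1, against 85.0%.

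**Figure D4:**
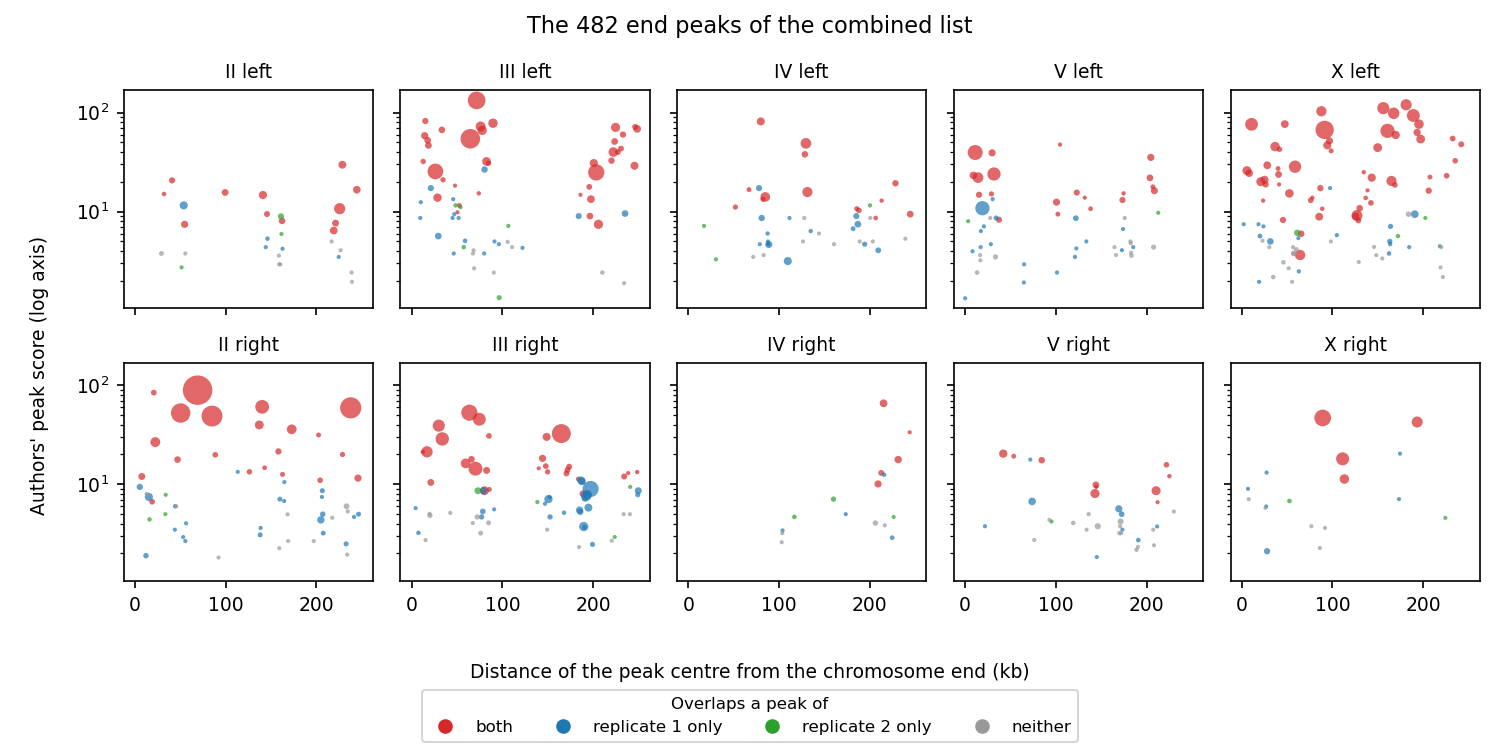
The 482 end peaks of the combined list by distance of their centre from the chromosome end (kb) and by the authors' score (log axis), 1 panel per end. Symbol area grows with peak width up to a limit, and colour shows which replicate lists hold an overlapping peak; 207 of the peaks overlap both replicates, and the last 100 kb of the right end of IV are empty.

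**Figure D5:**
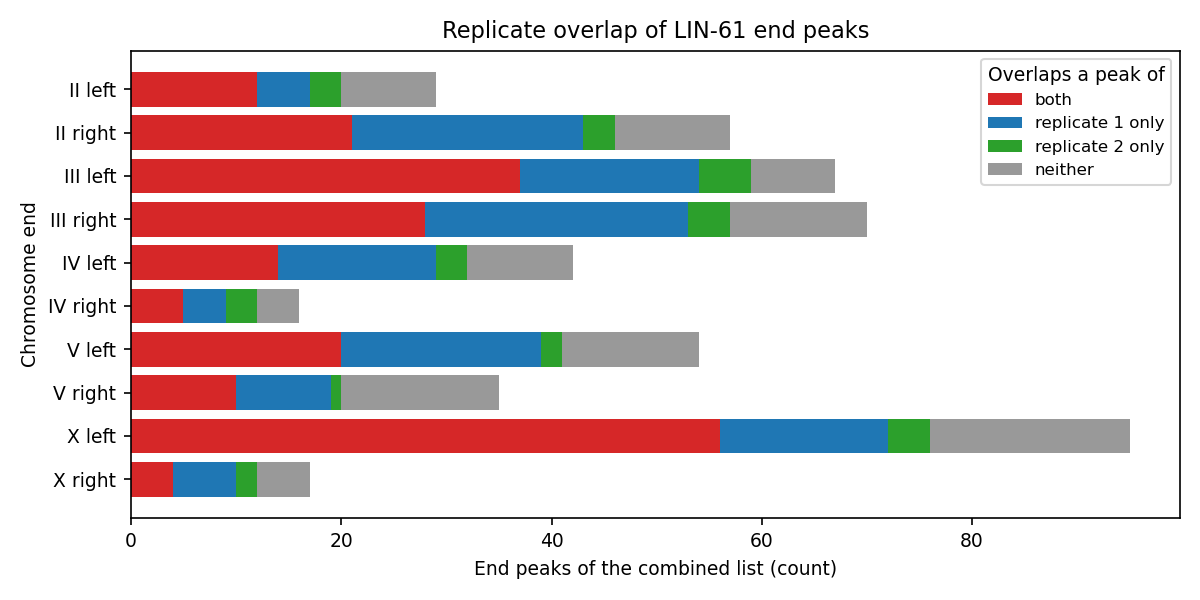
Number of end peaks of the combined list at each end, divided by whether they overlap a peak of both replicates, of replicate 1 only, of replicate 2 only or of neither. The bar of the left end of X holds 95 peaks, 56 of them with both replicates, and that of the right end of IV 16, 5 of them with both.

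The 10 peaks just inside the 250-kb limit scored 4.58 to 68.41 and were 164 to 827 bp wide, with a median of 417 bp. The 10 just outside scored 3.25 to 67.63 and were 162 to 1376 bp wide, with a median of 687 bp. The closest to the limit were at the right end of III, where a peak of 677 bp lay 236 bp inside and one of 1012 bp lay 701.5 bp outside.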

How the data were processed

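LIN-61 ChIP-seq peaks of N2 L3 larvae were analysed from 3 deposited lists, 1 per ChIP replicate and 1 for the series. Per the labels' protocols, ground worms were crosslinked with EGS for 20 minutes and with EGS plus formaldehyde for 10 more. Per the file headers, peaks are MACS binding sites on build WS220. Not given in the sources used here are the control, the threshold, the aligner, the treatment of reads from repeats and the making of the combined list. The deposited score per peak is the authors' own value, and its quantity is not named.

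Chromosome lengths of WS220 were those of the rule: a replicate 1 peak ends on the last base at all 5 right ends. Covered length was clipped to each window. Named peaks were the best-scoring and the outermost combined peak of each end and the 5 widest; others are marked in the text. The members, lists and comparisons were chosen with earlier results of these data known. Counting and overlap were tested on simulated data. Tools were Python 3.11.15, numpy 2.4.6, pandas 2.3.3, statsmodels 0.14.6 and matplotlib 3.10.9.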

Additional observations from a re-analysis of the deposited data

How the results depend on the processing

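The direction of the comparison with the next window was the same under all 10 alternatives for 4 ends: the right ends of II and IV and the left ends of V and X. It turned or reached equality under 1 alternative for the right end of X, 2 for the left end of II and the right end of III, 5 for the left end of IV and 6 each for the left end of III and the right end of V. The cause was not tested. The ratio of peak number over all ends, 1.35, was 1.13 with windows of 500 kb, 1.15 with peaks within 1 kb merged and 1.06 without the left ends of V and X, an alternative chosen after seeing the data; leaving out each end in turn gave 1.18 (without X left) to 1.51, and the single replicate lists gave 1.25 and 1.42. The ratio of covered length, 1.39, was 1.74 with windows of 100 kb and 1.2 with 500 kb. It was 1.11 without the left ends of V and X and 1.28 without the widest peak, both chosen after seeing the data. Leaving out each end gave 1.19 to 1.69, and the lists of replicates 1 and 2 gave 1.40 and 1.28. The share of end peaks with both replicates, 42.9%, was 32.4% where each replicate had to cover 50% of the peak and 80.4% at or above the median score. Neither of these settings was applied to the whole list, so they have no background share beside them. A stricter overlap lowers it by construction. Leaving out each end gave 39.0% to 44.1%. The median width difference, end minus next, -28.5 bp, was 14.0 bp with windows of 100 kb, 31.5 bp with 500 kb and -39.5 bp at or above the median score, -35.5 bp in each replicate list, and -43.5 to -14.0 bp with each end left out. The median score difference, -0.41, was 1.45, 0.25 and -1.02 under the first 3 of these settings. It was -0.48 in the list of replicate 1, -0.255 in that of replicate 2, and -1.55 to 0.0 with each end left out. Neither median difference therefore has a stable direction. With windows of 100 kb the right end of IV has no combined peak and gives no ratio. No paired analysis was possible because, between ChIP and input, only ChIP peak lists were analysed; the outer and next windows are compared within each library throughout. Depth is unknown, so a site missing from 1 list is not shown to be unbound.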
